A study of Saccharomyces cerevisiae with 3 samples.

Results

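The genes described here encode the proteins of the small subunit of the cytosolic ribosome of Saccharomyces cerevisiae. They were all genes of the array whose symbol is RPS followed by a number and, where a gene has a paralogue, the letter A or B, together with ASC1. This gave 56 of the 5543 genes with a symbol on the array, each with 2 spots, and all 56 identifiers matched the R64 gene table with the same symbol. Transcripts of a strain with WAR1-K762R and of a strain with WAR1 were hybridised together to 3 two-colour arrays, 1 pair of cultures to an array. Both strains were of the W303 background and made War1K762R or War1 from the galactose-inducible GAL1 promoter, which replaces the factor's own regulation on that copy of the gene. The labels used here do not give the state of the chromosomal WAR1 gene. Cultures grew at 30 °C in rich medium with 2% raffinose to an OD600 of 0.8 and received 2% galactose for 1 h, and no acid is named. Replicates 1 and 2 had War1K762R in Cy5, and replicate 3, with the dyes exchanged, had it in Cy3. All values are log2 ratios of War1K762R over War1 within an array, after the median of all spots of that array was set to 0. That direction is likely but not certain, since the dye labels give it only if the scanner divided Cy5 by Cy3, a step that no source used here describes. With the opposite division every sign turns.

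The small subunit binds the messenger RNA, reads its codons and checks the pairing with transfer RNA. Its ribosomal RNA folds into a head, a body and a platform, and each protein holds a fixed place on one of these. Yeast carries most of these genes as a pair of paralogues, A and B, that encode identical or nearly identical proteins, and the 2 copies can be expressed unequally. Ribosomal protein genes are transcribed at very high rates in growing yeast, largely through Rap1, Fhl1, Ifh1 and Sfp1, and their output follows nutrient supply through the TOR and protein kinase A pathways. War1 is a zinc cluster activator known for inducing the transporter gene PDR12 under weak acid stress.

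The small subunit genes were well measured for this platform. All 112 of their spots had a value on replicates 1 and 2 and 108 had one on replicate 3, where 43.6% of all 13056 spots were missing. The exceptions were both spots of RPS19A and both of RPS30A, so 54 members were among the 3579 genes measured on all 3 arrays. The 2 spots of a member differed by a median of 0.04, 0.08 and 0.10 on the log2 scale in replicates 1, 2 and 3, against 0.09, 0.12 and 0.12 for all genes with 2 spots. The widest gap of a member on each array was that of RPS30A at 0.38, of RPS13 at 0.45 and of RPS2 at 0.54.

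As a set, the small subunit genes lay on different sides of the array median on different arrays. On replicate 1 their log2 ratios ran from −0.24 to 0.63 with a median of 0.18, and 40 of 54 were above 0. On replicate 2 they ran from −0.36 to 0.31 with a median of −0.05, and 19 were above 0. On replicate 3 they ran from −0.70 to 0.02 with a median of −0.28, and 1 of 54, RPS0A, was above 0. Its 0.02 was the mean of spots at −0.22 and 0.27. The medians of all genes tested were 0.07, 0.06 and 0.01, so the members lay 0.10 above that level on replicate 1, 0.11 below it on replicate 2 and 0.29 below it on replicate 3.

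**Figure D1:**
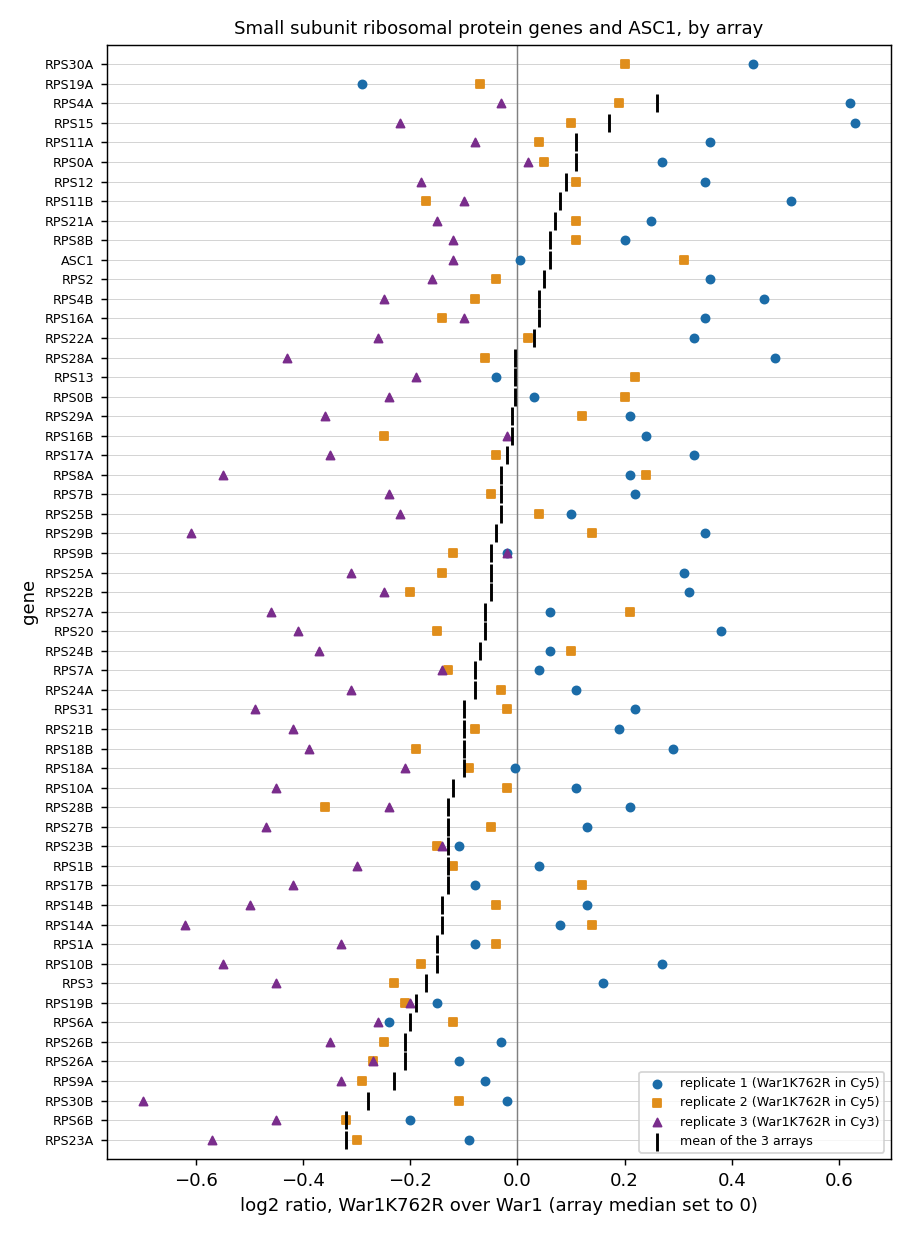
Log2 ratio of War1K762R over War1 (horizontal axis, array median set to 0) for each of the 56 genes, with 1 symbol per array and a bar for the mean of 3 arrays. Genes run from the lowest mean, RPS23A and RPS6B at −0.32, to the highest, RPS4A at 0.26, with RPS19A and RPS30A, which lack replicate 3, at the top. The triangles of replicate 3 lie left of 0 for 53 of 54 genes.

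Within single genes the same order of arrays recurred. Replicate 3 gave the lowest value for 47 of 54 members (87%), against 44.1% of all genes tested. Replicate 1 gave the highest for 43 members (79.6%), against 37.9%. Replicate 1 was above replicate 3 for 53 members (98.1%), against 58.9%, and the exception was RPS9B, at −0.02 on both to 2 decimals. The median SD between arrays was 0.27 for members and 0.20 for all genes tested. These counts describe genes that share the same arrays and are not independent of each other.

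The replicate with the lowest values was also the array with the dyes exchanged. Written as Cy5 over Cy3, if the scanner divided that way, the medians of the members were 0.18, −0.05 and 0.28 on replicates 1, 2 and 3. On replicates 1 and 3 the members thus lay above the array median in that orientation, whichever strain Cy5 held. For all genes tested the same medians were 0.07, 0.06 and −0.01. All of these are relative to the array median, which was −0.27 as deposited on replicate 1, so they do not tell which channel was brighter. With a dye term in the limma fit the median of the members was −0.14 and 0 of 54 passed. The exchanged orientation was held by a single array, so in that fit the dye and the other properties of replicate 3 cannot be told apart.

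The large subunit genes showed the same course. The 75 of 79 cytosolic large subunit genes measured on all arrays had medians of 0.13, −0.01 and −0.28, within 0.05 of the small subunit medians on each array. Over the 3 arrays their mean ratios had a median of −0.04, beside −0.06 for the small subunit. Among the small subunit genes the rank order carried over weakly from array to array, with Pearson's r across the 54 genes of 0.21 between replicates 1 and 2, 0.19 between 1 and 3, and only 0.05 between 2 and 3 (rho by Spearman's ranks 0.19, 0.17 and 0.03). For the 75 large subunit genes r was 0.44, 0.47 and 0.26. These correlations are across genes that share arrays and are given as descriptions.

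**Figure D2:**
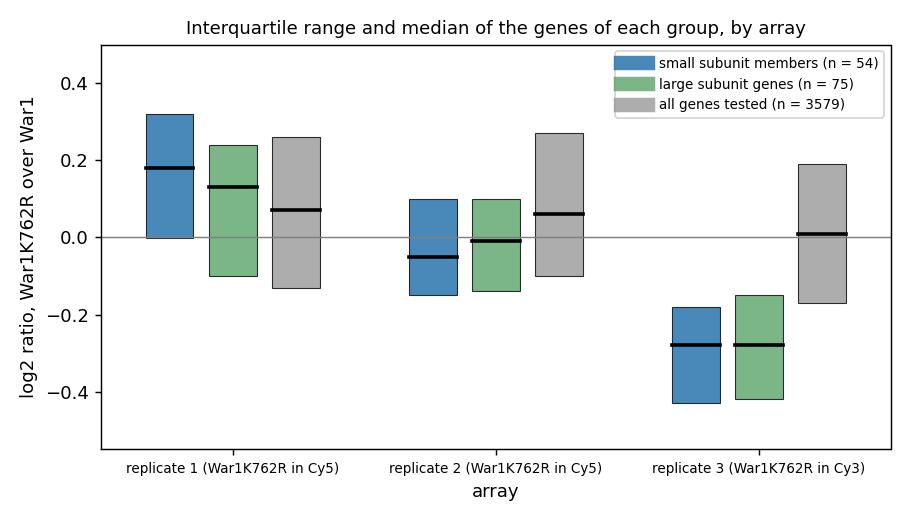
Distribution of the log2 ratio of War1K762R over War1 (vertical axis) on each array for the 54 small subunit genes, the 75 large subunit genes and all 3579 genes tested. Boxes span the interquartile range and the bar is the median. The medians of both ribosomal groups lie above 0 on replicate 1, near 0 on replicate 2 and below 0 on replicate 3, at −0.28 for each on the last. On replicate 1 the boxes reach down to −0.002 for the small subunit and −0.10 for the large subunit.

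No small subunit gene passed the test of War1K762R against War1. Over all 3579 genes limma (two-sided, Benjamini-Hochberg adjusted p under 0.05) called 0.335% higher and 0.0279% lower. Of the 54 members it called 0 higher and 0 lower, and at an unadjusted p under 0.05 there were 0 higher and 2 lower, RPS6B and RPS23A, where 2.68% of all genes were lower at that level and 11.1% higher. The lowest adjusted p of a member was 0.283, that of RPS6B. The mean ratios of the 54 members had a median of −0.06 and those of all genes tested one of 0.05, and 41 members had a mean below 0. That median rests on replicate 3, since without it the median of the members was 0.08, level with 0.08 for all genes tested, and 17 of the same 54 had a mean below 0.

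The 3 arrays gave an interval for the mean of each member. The 95% interval of a member's mean, from limma, reached a median of 0.30 to either side on the log2 scale. All 54 intervals lay within 1 log2 unit of 0, and 51 of 54 lay within a 1.5-fold difference in either direction. These intervals are no firm bound on a missed difference. The fit shares variance over all genes, whose median SD of 0.20 was below the 0.27 of the members. Cross-hybridisation between paralogues, which the intervals do not cover, was not tested. A missed threshold does not show that a transcript was equal in the strains.

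By sign, 12 of 54 members were below 0 on all 3 arrays, against 13.5% of all genes tested, and 1 was above 0 on all 3, against 24.7%. The 12 were RPS1A, RPS6A, RPS6B, RPS9A, RPS9B, RPS18A, RPS19B, RPS23A, RPS23B, RPS26A, RPS26B and RPS30B, and the 1 was RPS0A. Both genes of RPS6, RPS9, RPS23 and RPS26 were thus among those below 0 throughout. These signs are of means over 2 spots, and single spots did not always share them. The spots of RPS0A on replicate 3 lay on opposite sides of 0. Among the 12, RPS30B for example had a spot at 0.03 and 0.06 on replicates 1 and 2. Set against the median of the members on each array, which removes the common displacement, 9 genes were above it and 7 below it on all 3 arrays. All genes tested, set against their own median in the same way, gave 18.7% above and 18.6% below. The 9 were RPS0A, RPS2, RPS4A, RPS8B, RPS11A, RPS12, RPS15, RPS21A and RPS22A, and the 7 were RPS1B, RPS3, RPS6B, RPS9A, RPS23A, RPS26B and RPS30B.

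The proteins of the body held both ends of the range. The 27 body genes tested had a median mean of −0.05 and spanned −0.32 to 0.26. RPS6B encodes Rps6, the protein that is phosphorylated in response to TOR signalling, and had log2 ratios of −0.20, −0.32 and −0.45 in replicates 1, 2 and 3. All 3 values lay below 0, with a mean of −0.32 ± 0.12 (SD, n = 3, 1.25-fold lower, 95% interval −0.59 to −0.05, limma adjusted p = 0.283). Its paralogue RPS6A had −0.24, −0.12 and −0.26, again all below 0, with a mean of −0.20 ± 0.08 (adjusted p = 0.462 in limma). Of the 54 members measured on all arrays, RPS6A and RPS6B were the 2 lowest on replicate 1, where most members were above 0.

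Rps23 and Rps9 lie near the decoding centre and are known from mutants that alter the accuracy of translation. RPS23A had −0.09, −0.30 and −0.57, a mean of −0.32 ± 0.24 (95% interval −0.62 to −0.02, limma adjusted p = 0.319). RPS23B had −0.11, −0.15 and −0.14, a mean of −0.13 ± 0.02. These averages of 2 spots were nearly the same on every array while those of RPS23A were spread. The single spots of RPS23B were less steady, at −0.27 and −0.02 on replicate 2, where those of RPS23A were −0.31 and −0.28. RPS9A had −0.06, −0.29 and −0.33, a mean of −0.23 ± 0.14 (limma adjusted p = 0.432). RPS9B had −0.02, −0.12 and −0.02, a mean of −0.05 ± 0.06, and its value on replicate 3 was not below that on replicate 1. RPS30B encodes a small basic protein of the body, and its −0.02, −0.11 and −0.70 included the lowest value of any member on any array. Its mean of −0.28 ± 0.37 therefore rested on replicate 3, and over the other arrays the mean was −0.06.

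At the other end of the body stood RPS4A, which encodes Rps4. It had 0.62, 0.19 and −0.03, a mean of 0.26 ± 0.33 (1.20-fold higher, 95% interval −0.06 to 0.58, limma adjusted p = 0.443), the highest of the 54. It exceeded the median of the members on each array, by 0.45, 0.23 and 0.26. RPS4B had 0.46, −0.08 and −0.25 and a mean of 0.04 ± 0.37. RPS0A encodes one copy of a protein needed for late processing of the small subunit ribosomal RNA. It had 0.27, 0.05 and 0.02 and a mean of 0.11 ± 0.14 (limma adjusted p = 0.7), and its spots on replicate 3 disagreed in sign.

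RPS11A had 0.36, 0.04 and −0.08 and RPS11B 0.51, −0.17 and −0.10, with means of 0.11 ± 0.23 and 0.08 ± 0.37. RPS2, a single gene whose protein lines the entry of the messenger RNA channel, had 0.36, −0.04 and −0.16 and a mean of 0.05 ± 0.27. RPS13, also a single gene, had −0.04, 0.22 and −0.19 and a mean of −0.004 ± 0.21. None of these kept one sign on all 3 arrays. RPS21A had 0.25, 0.11 and −0.15 with a mean of 0.07 ± 0.21, and RPS21B had 0.19, −0.08 and −0.42 with a mean of −0.10 ± 0.30.

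Of the 22 head members 21 were measured on all 3 arrays, with a median mean of −0.05 and a range from −0.19 for RPS19B to 0.17 for RPS15. Their array medians of 0.24, −0.06 and −0.35 were the widest apart of the 3 regions. Most single-copy members belong here. RPS15, whose protein has a tail that reaches towards the decoding centre, had 0.63, 0.10 and −0.22 and a mean of 0.17 ± 0.43 (limma adjusted p = 0.658). Its value on replicate 1 was the highest of any member on any array. RPS20, whose protein is a target of the ubiquitin ligase Hel2 on collided ribosomes, had 0.38, −0.15 and −0.41 and a mean of −0.06 ± 0.41. RPS3, of the entry of the messenger RNA channel, had 0.16, −0.23 and −0.45 and a mean of −0.17 ± 0.31 (limma adjusted p = 0.607).

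RPS15, RPS20 and RPS3 thus followed the order of the whole set, high on replicate 1 and low on replicate 3, at different levels. RPS12, whose protein sits on the beak of the head, had 0.35, 0.11 and −0.18 and a mean of 0.09 ± 0.26. RPS31, which encodes a ribosomal protein made as a fusion to ubiquitin, had 0.22, −0.02 and −0.49 and a mean of −0.10 ± 0.36. ASC1 encodes the yeast RACK1 homologue, a scaffold on the head near the exit of the messenger RNA. It departed from that order, with 0.004, 0.31 and −0.12, its highest value on replicate 2 and a mean of 0.06 ± 0.22 (limma adjusted p = 0.861). The spots of ASC1 disagreed in sign on replicate 1, at −0.04 and 0.05, and on replicate 3, at 0.09 and −0.33. RPS28A had 0.48, −0.06 and −0.43 and RPS28B 0.21, −0.36 and −0.24, with means of −0.004 ± 0.46 and −0.13 ± 0.30. Rps28 is known to act on the decay of the RPS28B messenger RNA.

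All 6 platform genes had means below 0, from −0.21 for RPS26A to −0.13 for RPS1B, with a median of −0.15, where 41 of all 54 members had a mean below 0, and 0 of them had an unadjusted p under 0.05 in limma. Without replicate 3 the platform median was −0.05 and 4 of the 6 means were below 0, with RPS14A at 0.11 and RPS14B at 0.04. In the same setting the medians of the head and the body were 0.09 and 0.08. Rps26 lies at the exit of the messenger RNA channel and contacts the bases before the start codon. RPS26A had −0.11, −0.27 and −0.27, a mean of −0.21 ± 0.09 (95% interval −0.48 to 0.05, limma adjusted p = 0.448). RPS26B had −0.03, −0.25 and −0.35, a mean of −0.21 ± 0.17 (limma adjusted p = 0.463). The array medians of the platform genes were 0.003, −0.08 and −0.34, so on replicate 1, where the head stood at 0.24 and the body at 0.13, they did not share the higher position. No test was made between the regions.

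RPS19A and RPS30A lacked values on replicate 3. RPS19A had −0.29 and −0.07 in replicates 1 and 2, and RPS30A had 0.44 and 0.20. Among genes with at least 2 arrays their means were −0.18 and 0.32 (limma adjusted p = 0.615 and 0.344). The value of RPS19A on replicate 1 was lower than that of any member measured on 3 arrays. In the R64 gene order 8 members lie next to another ribosomal protein gene, among them RPS14B beside RPS22A. Those neighbours had means of −0.14 ± 0.32 and 0.03 ± 0.29.

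A and B paralogues were compared by subtracting the log2 ratio of gene B from that of gene A within each array, which removes any displacement that both genes share. The difference was tested with limma over all 53 pairs of the table whose symbols end in A and B and that had values on all 3 arrays, 22 of them small subunit pairs. Of the 53 pairs, 0% passed at an adjusted p under 0.05, and 9.43% had an unadjusted p under 0.05. Of the 22 small subunit pairs 0 passed and 1, RPS4, had an unadjusted p under 0.05. The fit found one common spread for all pairs, so every interval reached equally far to either side of its mean.

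The A copy had the higher mean ratio in 12 of the 22 pairs and the B copy in 10. The mean differences ran from −0.19 to 0.22 with a median of 0.03, and in the other 31 pairs, nearly all of the large subunit, the median was 0.02. On replicates 1, 2 and 3 the A copy was the higher in 11, 13 and 13 of the 22. There was thus no side that the A copies as a set took in the strain with War1K762R. The size of the difference without its sign had a median of 0.06 between partners, and of 0.11 between 2 members that are not partners. Across the 22 pairs the mean of A and the mean of B had a Pearson's r of 0.65 (Spearman's rho 0.67), and within replicates 1, 2 and 3 r was 0.64, 0.43 and 0.26. The 2 copies share arrays and much of their sequence, and cross-hybridisation between their spots was not tested, so these figures may hold signal of both copies at either spot.

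**Figure D3:**
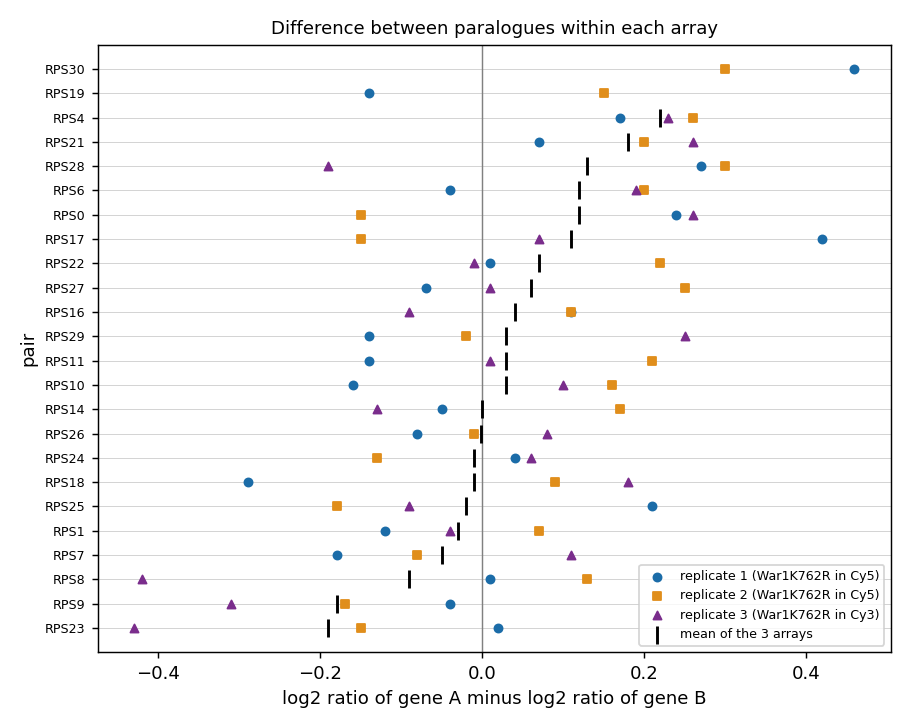
Log2 ratio of gene A minus log2 ratio of gene B (horizontal axis) within each array for the 24 small subunit pairs, with 1 symbol per array and a bar for the mean of 3 arrays. RPS4 and RPS21 lie right of 0 on all 3 arrays and RPS9 lies left of 0 on all 3. RPS19 and RPS30, at the top, lack replicate 3 and have no mean.

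In 2 of the 22 pairs, RPS4 and RPS21, the A copy was the higher on all 3 arrays, and in 1, RPS9, the B copy was. Of all 53 pairs the A copy was the higher on all 3 arrays in 5.66% and the B copy in 7.55%. RPS4 had differences of 0.17, 0.26 and 0.23, nearly the same on each array although the ratios of both copies lay far apart between replicates 1 and 3. Its mean of 0.22 ± 0.05 (SD, n = 3, 95% interval 0.003 to 0.43) did not pass over the 53 pairs (limma adjusted p = 0.496). RPS21 had 0.07, 0.20 and 0.26, a mean of 0.18 ± 0.10 (95% interval −0.04 to 0.39, limma adjusted p = 0.729). RPS9 had −0.04, −0.17 and −0.31, a mean of −0.18 ± 0.14 (95% interval −0.39 to 0.04, limma adjusted p = 0.729). Its replicate 3 value includes the 2 spots of RPS9A at −0.09 and −0.57. On replicate 1 the spots overlapped, at −0.11 and −0.02 for RPS9A and −0.04 and −0.004 for RPS9B.

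The other pairs with large mean differences did not keep one sign on all 3 arrays. RPS23 had 0.02, −0.15 and −0.43, so that most of its mean of −0.19 ± 0.23 came from replicate 3 (95% interval −0.40 to 0.03, limma adjusted p = 0.729). RPS28 had 0.27, 0.30 and −0.19, a mean of 0.13 ± 0.28 with opposite signs on replicates 1 and 3 (limma adjusted p = 0.961). RPS6 had −0.04, 0.20 and 0.19, a mean of 0.12 ± 0.13 (limma adjusted p = 0.961). RPS30, with 0.46 and 0.30 on its 2 arrays and so above 0 on both, had the largest difference of any small subunit pair. Among pairs with at least 2 arrays its mean was 0.38 (95% interval 0.13 to 0.64, unadjusted p = 0.0038, limma adjusted p = 0.113). Its replicate 1 value includes the 2 spots of RPS30A that disagreed by 0.38.

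At the small end, RPS14, RPS26, RPS18 and RPS24 had mean differences of −0.0006, −0.002, −0.01 and −0.01. Their intervals still reached 0.22 to either side, as for RPS14 at −0.22 to 0.22. The pairs differed in how steady that was. RPS26 stayed between −0.08 and 0.08 on the 3 arrays, whereas RPS18 had −0.29, 0.09 and 0.18, which averaged out.

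**Figure D4:**
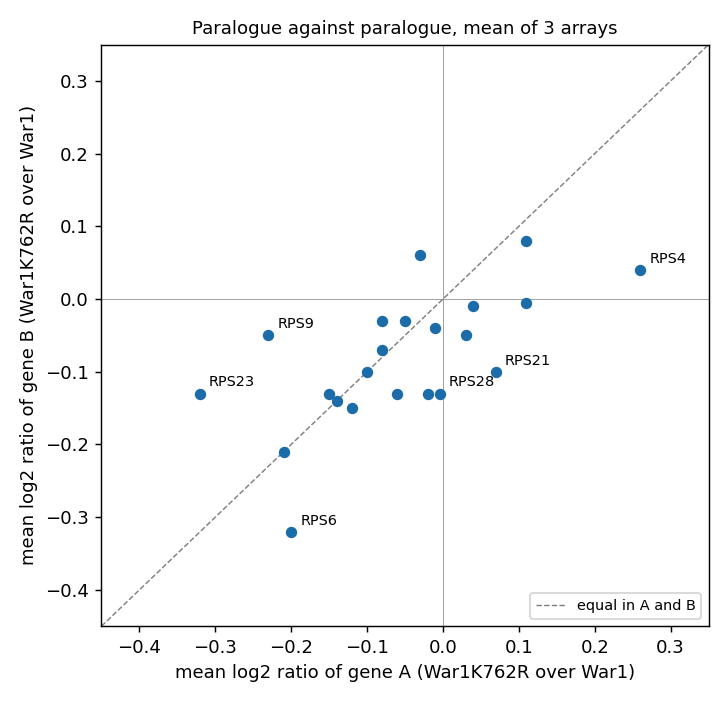
Mean log2 ratio of War1K762R over War1 over 3 arrays for gene A (horizontal axis) and gene B (vertical axis) of the 22 small subunit pairs measured on all arrays, with the 6 largest differences named and a dashed line where both copies are equal. RPS26, at −0.21 for both copies, lies on the line, and RPS4, at 0.26 and 0.04, lies farthest to the right of it.

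Other genes that act on the small subunit or on its protein genes were given as 4 lists, chosen with earlier results of these data known. None of their genes passed over all genes tested (limma). Of 19 listed regulators of ribosomal protein gene transcription on the array 14 were tested, and RAP1 and FHL1 were not among those 14. Of the 14, 0 passed and the median mean was 0.09. SCH9, the kinase that TOR activates to favour ribosome synthesis, was highest at 0.52 ± 0.25 (limma adjusted p = 0.124) and TOR2, a TOR kinase gene, lowest at −0.28 ± 0.06 (limma adjusted p = 0.321). SCH9 was above 0 and TOR2 below 0 on all 3 arrays. Among 22 initiation factor genes, 0 passed and the median was 0.06, from −0.25 for TIF11, which encodes a factor of start codon scanning, to 0.47 for PAB1, the poly(A)-binding protein gene (limma adjusted p = 0.127). Among 9 genes of ribosome-bound stress and surveillance factors 0 passed, with a median of −0.004, from −0.19 for STM1 to 0.24 for RQT4. At an unadjusted p under 0.05 in limma there were 3 regulators, SCH9 and SFP1 higher and TOR2 lower. In the same way there were 2 initiation factor genes, both higher, and 0 of the stress factors. Among all genes tested 11.1% were higher and 2.68% lower at that level.

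The 18 genes of small subunit assembly factors and ribosomal protein chaperones had a median of −0.15, below both the ribosomal protein genes and the median of 0.05 for all genes tested. Of these 18, 0 passed in limma, and 4, all lower, had an unadjusted p under 0.05. At that level in limma 2.68% of all genes tested were lower and 11.1% higher. Further, 9 of the 18 had negative ratios throughout, beside 13.5% of the genes tested as a whole. The list was chosen with earlier results of these data known, so these shares are descriptions and not independent support. The array medians of the 18 were −0.25, −0.12 and −0.14, so on replicate 1 theirs lay below 0 while the medians of the ribosomal protein genes lay above it. The list holds 4 dedicated escorts of single small subunit proteins, named here after their values were seen. TSR2, the escort of Rps26, was lowest of the list with −0.49, −0.35 and −0.40, a mean of −0.42 ± 0.07 (limma adjusted p = 0.163). YAR1, the escort of Rps3, had −0.35, −0.41 and −0.43, a mean of −0.40 ± 0.04 (limma adjusted p = 0.179). FAP7, which acts with Rps14, had −0.48, −0.34 and −0.19, a mean of −0.34 ± 0.14 (limma adjusted p = 0.27).

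Those 3 transcripts kept one sign on every array, with SDs of at most 0.14 between arrays. This was not particular to escorts, since other genes of the list were also below 0 on all 3 arrays. KRR1 had a mean of −0.41 ± 0.28, LTV1 −0.25 ± 0.05 and PNO1 −0.24 ± 0.04. The clients of the 3 escorts had means of −0.21 ± 0.09 for RPS26A, −0.21 ± 0.17 for RPS26B and −0.17 ± 0.31 for RPS3. Those of RPS14A and RPS14B were −0.14 ± 0.42 and −0.14 ± 0.32, where 41 of all 54 members had a mean below 0. Without replicate 3 the means of these clients were −0.19, −0.14, −0.03, 0.11 and 0.04, so those of RPS3 and of both RPS14 genes rested on that array. TSR4, the escort of Rps2, had 0.21, 0.29 and −0.12 and a mean of 0.13 ± 0.22, and RPS2 itself had a mean of 0.05. UTP30 was the highest of the assembly list at 0.31 ± 0.36.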

How the data were processed

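The deposited values are log2 ratios, 1 for each of 13056 spots on each of 3 arrays. How the authors scanned, filtered and normalized the arrays is not stated in the labels, and without intensities no background correction or filter on dim spots was possible. Among values up to 0.5 in size, the linear ratio came out with 3 decimals for 100% of replicates 1 and 2 as deposited, and for 100% of replicate 3 only after its sign was turned (10.2% before). The deposited log2 columns were therefore taken to run one way. A treatment label of replicates 1 and 2 names the mutant for the Cy3 channel as well, against the source names, and was set aside.

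The median of each array's spots was subtracted, spots of a gene were averaged, and 3579 genes with 3 values were fitted with limma 3.58.1 in R 4.3.3 (lmFit and eBayes, two-sided, Benjamini-Hochberg, threshold 0.05). A and B differences were fitted alike over 53 pairs. Both fits were tested on simulated data. Errors are SDs over 3 arrays, which the design text calls biological repeats, and their number limits the precision. Named with array values were single-copy members and ASC1, the 6 highest and 6 lowest means and the 6 largest A and B differences. Members, lists and subunit regions were chosen with earlier results of these data known. R64 served for names and gene order only, since no build is named for the array. Alternatives were leaving out each array, turning replicate 3, other centrings, a dye term, genes on at least 2 arrays and single spots.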

Additional observations from a re-analysis of the deposited data

How the results depend on the processing

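No small subunit gene and no small subunit pair passed limma in any of the 10 alternatives for genes or the 9 for pairs. At an unadjusted p under 0.05 limma gave 0 to 4 small subunit genes or spots. The lowest adjusted p of a named member was 0.222 and of a named pair 0.326. The median of the members was −0.06, with −0.17 to 0.08 when single arrays were left out, 0.15 with replicate 3 turned once more and −0.14 with a dye term. Its distance from all genes, −0.11, became −0.20 without replicate 1 and 0.06 without replicate 3. Without replicate 3 on the same genes it was −0.01, and with replicate 3 turned once more 0.10. With the 5479 genes on at least 2 arrays it was −0.06, since the median of all genes was −2e-05 there and 0.05 over the 3579 genes on all 3. Over all genes, 12 were called higher and 1 lower. Leaving out single arrays gave 1 to 46 higher and 1 to 34 lower. The upper ends came without replicate 3, where 5475 genes were tested, and on the same 3579 genes that setting gave 15 higher and 1 lower. Replicate 3 turned once more gave 0 and 0 (145 at an unadjusted p under 0.05 in limma), at least 2 arrays 67 and 50, and single spots 7 and 2. No centring gave 25 higher, centring on the genes tested 3 and the dye term 2. The pair count of 0 became 1, RPL41 of the large subunit, without replicate 2 (range 0 to 1) and with a dye term.

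Of 260 values of 26 named members 227 kept their sign. That share is no measure of stability, since genes on at least 2 arrays and single spots return the same means and could turn no sign. The means without replicate 3 also count under both of its gene sets. Leaving out replicate 1, 2 or 3 turned the sign of 8, 2 and 5 of the 26. Leaving out single arrays turned the sign of ASC1 (−0.06 to 0.15), RPS2 (−0.10 to 0.16), RPS4B (−0.17 to 0.19), RPS11A (−0.02 to 0.20), RPS11B (−0.13 to 0.20), RPS12 (−0.03 to 0.23), RPS13 (−0.12 to 0.09), RPS15 (−0.06 to 0.36), RPS20 (−0.28 to 0.12), RPS21A (−0.02 to 0.18), RPS21B (−0.25 to 0.05), RPS28A (−0.25 to 0.21) and RPS31 (−0.25 to 0.10). With replicate 3 turned once more the sign turned for RPS3 and RPS13 (0.13 each), RPS20 (0.22), RPS21B (0.17), RPS23A (0.06), RPS26B (0.02), RPS28A (0.28), RPS28B (0.03), RPS30B (0.19) and RPS31 (0.23), and for the A minus B difference of RPS23 (0.10), RPS9 (0.03) and RPS6 (−0.01). With a dye term RPS4B became −0.03 and RPS2 −0.0004, and RPS4B was −0.003 when centred on the genes tested. The cause was not tested. Each ratio already pairs the 2 strains within an array, and no further replicate block could be fitted to the 3 arrays.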
